A study of Mus musculus with 10 samples.

Results

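The genes described here mark intermediate progenitors of the embryonic cerebral cortex or drive progenitors toward the neuronal fate: Eomes, Neurog1, Neurog2, Insm1, Btg2, Gadd45g, Neurod4, Mfng, Mfap4 and Rhbdl3. They were taken by symbol from the deposited FPKM tables (fragments counted, scaled for transcript length and for the size of the library), and all 10 of 10 were found among the 23235 symbols. RNA was sequenced from GFP-positive cells of mouse cortex electroporated in utero at embryonic day 13 with GFP and either control shRNA or shRNA to Chd8, which remodels chromatin, and that were sorted at embryonic day 15 from pools of 3 to 5 embryos. The new set holds 3 control and 3 knockdown libraries with replicate numbers 10, 11 and 12, and the first set 2 control and 2 knockdown libraries with numbers 1 and 2. The deposited tables name the new set shRNA1 and the first set shRNA2, so the effects of shRNA, batch and table on a contrast between sets cannot be told apart. The sources used here do not give the mouse strain or the promoters of the plasmids. The sorted cells are the electroporated radial glia, the dividing stem cells at the ventricle, with whatever descendants had formed by embryonic day 15, and in such bulk samples fewer cells of a type and less RNA per cell cannot be told apart.

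As background, radial glia give rise to neurons either directly or through intermediate progenitors, which leave the ventricular surface, divide in the subventricular zone and produce most glutamatergic neurons of the cortex. The proneural factors Neurog1 and Neurog2 are basic helix-loop-helix (bHLH) proteins that bind E-boxes, switch on neuronal genes and Notch ligands in the cell that expresses them, and are repressed by the Notch effectors Hes1 and Hes5 in its neighbours. Eomes, also called Tbr2, follows Pax6 and precedes Tbr1 along the path from radial glia to intermediate progenitor to neuron.

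Chd8 itself was lower in every knockdown library than in every control of its set. It was at 3.59, 3.30 and 4.02 FPKM in the new-set controls against 2.09, 1.84 and 1.92, and at 12.4 and 13.8 against 8.55 and 9.23 FPKM in the first set (joined log2 fold change −0.58, SE 0.103, limma adjusted p = 0.00285). Chd8 passed in the new set alone (−0.65, adjusted p = 0.0213) and not in the first set alone (−0.51, adjusted p = 0.152), nor there in any fit without 1 library (0.208 to 0.412). Markers of the labelled tissue were present: the 23 radial glia markers summed to 1247 to 2508 FPKM and the 24 neuronal markers to 3024 to 6034 FPKM over the 10 libraries, while 5 markers of oligodendrocyte precursors summed to at most 1.97 FPKM and 6 of meninges to at most 2.33 FPKM. Markers of other cells reached higher sums, with 8 erythroid markers at up to 411 FPKM, 6 of choroid plexus and hem at up to 68.7 FPKM and 10 of interneurons at up to 57.1 FPKM. The first-set knockdown libraries stand apart. They had an estimated 0.525 and 0.529 times the depth of first-set control replicate 1, and their 1096 olfactory receptor genes, which cortex does not use, averaged 0.672 and 0.557 FPKM against at most 0.00817 FPKM in the other 8 libraries. That background was not subtracted in the values below unless said, and it is small beside the level of 7 of the 10 genes, Neurog1, Neurod4 and Rhbdl3 being the low ones.

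In the new set 4 of the 10 genes fell, 0 rose and 6 did not pass. Those that fell were Gadd45g, Neurog2, Rhbdl3 and Mfap4 (adjusted p under 0.05 by limma over 11291 genes, where 8.99% of genes were called, 5.15% lower and 3.84% higher). This fit leaves out the pairing by replicate number. With the number as a block 6 of the 10 fell, Btg2 and Neurog1 being added, and calls over all genes went from 1015 to 2452, of which 1207 were lower (10.7% of genes tested). In the first set 3 fell (Mfap4, Eomes and Btg2), 1 rose (Gadd45g) and 6 did not pass, among 12461 genes of which 23.8% were called, 10.7% lower and 13.2% higher. Of the first-set calls 55.2% were higher, and 40.8% after subtraction of the olfactory receptor mean. Mfap4 is the gene that fell in each set on its own. The median log2 fold change of the 10 genes was −0.54 for the new set and −0.84 for the first, and that of all tested genes was 0.02 and −0.15. In the new set 6 of the 10 had every knockdown library below every control, as did 17.1% of all tested genes. In the first set 6 of the 10 did so too, but there 40.4% of all tested genes did, and 1 had every knockdown library above, as did 27.4%. Mfap4, Btg2, Mfng and Rhbdl3, 4 of the 10, lay below their controls without overlap in both sets and 0 lay above, where 7.6% and 3.57% of genes tested in both did. All 10 had passed the filter of a mean of 1 FPKM in both tables. The new-set count of 4 was 2 without control replicate 12, knockdown replicate 10 or knockdown replicate 12, and 1 without knockdown replicate 11. Calls over all genes dropped too, with 1.54%, 1.35%, 1.6% and 0.584% called lower in these fits, in that order. The count was 0 without both libraries numbered 12, where 43 genes of 11251 remained called. In the first set, leaving out any library leaves 1 in a group. Those fits called fewer genes over all, and most first-set calls of the 10 genes were lost in each.

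**Figure D1:**
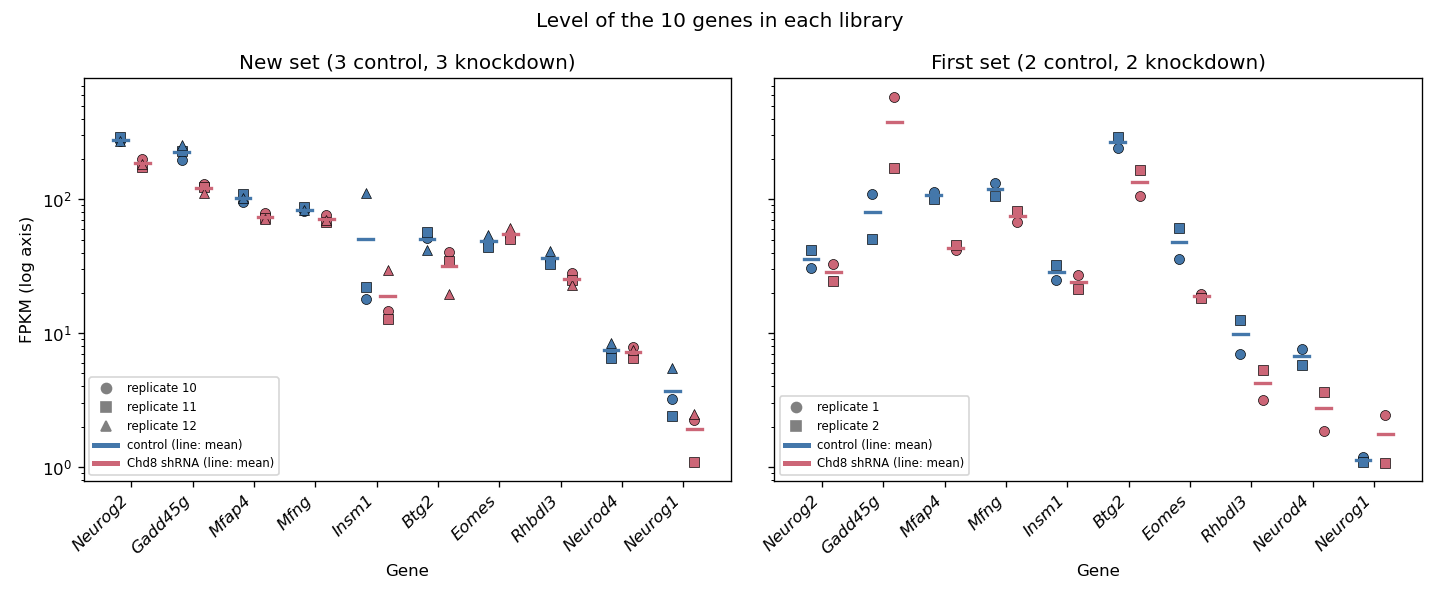
Level of each of the 10 genes in FPKM (log axis) in every library, by set, with control libraries in blue and knockdown libraries in red, marker shapes for replicate numbers and lines for group means. Neurog2 is the highest of the 10 in the new-set controls (mean 278 FPKM) and Btg2 in the first-set controls (mean 268 FPKM), and Insm1 stands at 111 FPKM in new-set control replicate 12.

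**Figure D2:**
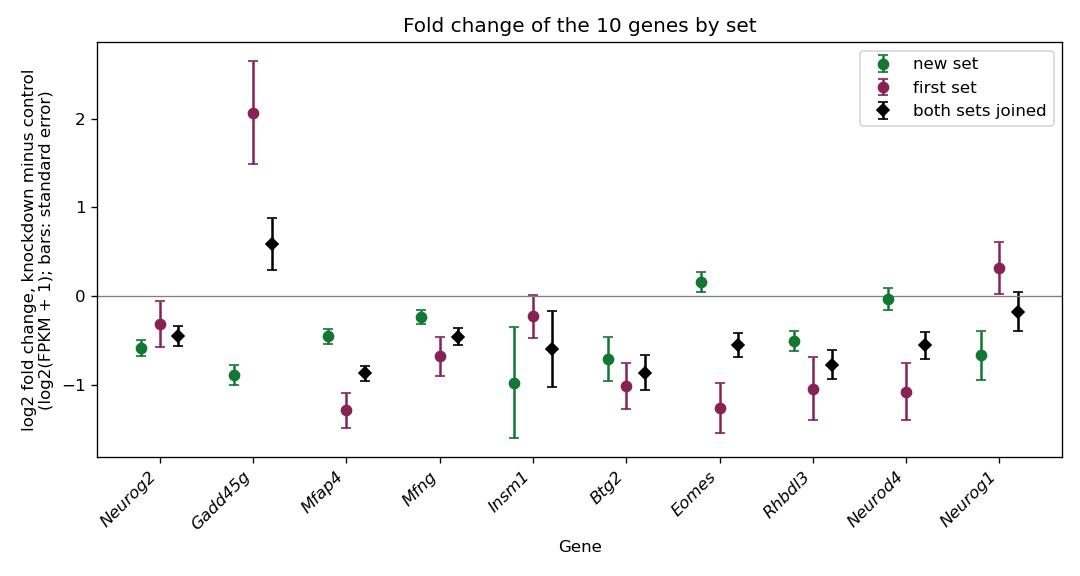
Log2 fold change (knockdown minus control, on the log2(FPKM + 1) scale) of each gene in the new set, the first set and both sets joined, with standard errors as bars. The first-set value of Gadd45g is above 0 (2.07) and its new-set value below 0 (−0.88), and Eomes lies above 0 in the new set (0.16) and below 0 in the first set (−1.25).

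The proneural bHLH factors are given in turn. A difference between them was tested only for Neurog2 and Neurog1, as a ratio, given below. Neurog2, the main proneural factor of the dorsal cortex, was at 272, 289.8 and 272 FPKM in the new-set controls against 199, 175 and 184 FPKM after knockdown. The groups do not overlap, and each knockdown library lay below the control with its number (278 ± 10.1 in 3 controls and 186 ± 12.05 FPKM in 3 knockdown libraries, mean ± SD; −0.58 on the log2 scale, SE 0.0863, adjusted p = 0.0149). Without knockdown replicate 11 this call was lost (adjusted p = 0.0695), as it was without both libraries numbered 12 (0.11). In the first set Neurog2 was at 30.5 and 41.5 FPKM in controls and at 33.1 and 24.4 FPKM in knockdown libraries. Here the groups overlap and the change did not pass (−0.31, SE 0.256, adjusted p = 0.395). The test of the difference between the sets did not pass either (new minus first −0.27, SE 0.225, adjusted p = 0.388), and over both sets joined Neurog2 fell (−0.45, SE 0.113, adjusted p = 0.0135).

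Neurog1, its close relative, was far lower than Neurog2 in every library, with Neurog2 at 13.6 to 161 times its FPKM. In the new set it was at 3.25, 2.40 and 5.51 FPKM in controls and at 2.25, 1.09 and 2.49 FPKM in knockdown libraries. The groups overlap, yet in 3 of 3 number pairs the knockdown library was lower. The change did not pass in the fit without pairing (−0.66, SE 0.273, adjusted p = 0.148) and passed with the replicate number as a block (SE 0.132, adjusted p = 0.0241). In the first set Neurog1 was at 1.19 and 1.09 FPKM in controls and 2.43 and 1.08 FPKM in knockdown libraries (0.32, SE 0.296, adjusted p = 0.45). After subtraction of each library's olfactory receptor mean that value was −0.058, so no direction can be read for Neurog1 there. Neurod4, a bHLH factor that acts after the neurogenins, was at 7.32, 6.55 and 8.52 FPKM in new-set controls against 7.85, 6.50 and 7.47 FPKM, which is overlap with a log2 fold change of −0.03 (SE 0.126, adjusted p = 0.899). Within the first set it was at 7.66 and 5.77 against 1.86 and 3.66 FPKM, with no overlap, and narrowly did not pass (−1.07, SE 0.32, adjusted p = 0.0502). With background subtraction it passed (−1.35, adjusted p = 0.0373). The difference of Neurod4 between the sets passed (1.04, SE 0.304, adjusted p = 0.0236).

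Of the 15 other genes of the proneural and neuronal bHLH list, 9 were tested in each set. In the new set 1 rose and 0 fell, beside 3.84% and 5.15% of all genes. In the first set 2 fell and 0 rose, beside 10.7% and 13.2%. Neurod6, a factor of young glutamatergic neurons, was the 1 that rose in the new set (936 ± 64.6 to 1362 ± 127 FPKM, 0.54, SE 0.128, adjusted p = 0.0411), and it fell in the first set (1808 ± 82.5 to 961 ± 108 FPKM, −0.91, SE 0.224, adjusted p = 0.0274). Tcf4, a widely expressed bHLH partner, was the other to fall in the first set (−0.87, adjusted p = 0.0209). Neurod1, which follows Eomes in newborn neurons, did not pass in either set (−0.02 and −0.57), nor did Neurod2 (0.26 and 0.10), Nhlh1 (−0.34 and −0.50), Nhlh2 (−0.55 and −0.26), Tcf3 (−0.21 and 0.56) or Tcf12 (0.08 and −0.66). Neurog3 and Atoh1, which cortex does not use, were listed at 0 in all 8 libraries other than the first-set knockdown libraries, where they averaged 1.38 ± 0.836 and 1.57 ± 0.548 FPKM (SD, n = 2). Neurog1 in those libraries is at a similar level.

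Eomes, the T-box factor that defines intermediate progenitors, was one of 4 genes with a difference between the sets. Within the new set it was at 48.2, 43.9 and 54.5 FPKM in controls against 53.2, 50.03 and 61.1 FPKM in knockdown libraries. Groups overlap, each knockdown library was above the control with its number, and the change did not pass (0.16, SE 0.109, adjusted p = 0.345, or 0.0932 with the replicate block). Among first-set libraries Eomes was at 35.6 and 60.5 FPKM in controls and at 19.6 and 18.2 FPKM in knockdown libraries. There the groups do not overlap and Eomes fell to 39.4% of control (−1.25, SE 0.284, adjusted p = 0.0216). That first-set call did not survive the removal of control replicate 2 (−0.88, adjusted p = 0.113), knockdown replicate 1 (−1.30, 0.141) or knockdown replicate 2 (−1.20, 0.131), nor testing with no filter on low values (0.0753). The difference between the sets was 1.42 (SE 0.276, adjusted p = 0.00393), and it passed without each of the 10 libraries in turn (adjusted p from 0.00123 to 0.0106). Reads of Eomes and of Gm33460, an antisense gene whose exons overlap it in GENCODE M21, cannot be told apart, since counting by strand is not given in the sources used here.

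The sequence before the Eomes start is shown because the change of this gene differed between the sets. It comes from RefSeq's table for GRCm38.p6, which lists promoters for 6 of the 10 genes (Eomes, Neurog1, Neurog2, Btg2, Gadd45g and Neurod4), and not from the authors' build mm9. These are the 250 bases upstream of the start at chr9:118477939-118478188, plus strand, 5′ to 3′, with any E-box (CANNTG) in capitals.
Eomes: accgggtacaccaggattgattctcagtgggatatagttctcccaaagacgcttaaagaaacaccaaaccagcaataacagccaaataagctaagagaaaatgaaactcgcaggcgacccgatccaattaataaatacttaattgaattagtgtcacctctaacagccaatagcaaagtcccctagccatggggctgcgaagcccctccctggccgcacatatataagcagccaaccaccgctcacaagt
This window holds 0 E-boxes, against at least 1 in 66.2% of the 32851 promoter windows of this length. It holds 2 matches to CACNAG, the N-box bound by Hes factors, at −242 and −7 counted from the start, a motif found on either strand in 36.7% of windows. A match is a description of letters and not of binding.

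Of the T-box list only Eomes and Tbr1 were tested. Tbr1, which marks deep-layer neurons, was at 92.8 ± 27.5 and 107 ± 6.58 FPKM in new-set control and knockdown libraries (0.25, adjusted p = 0.422) and at 30.2 ± 13.1 and 25.5 ± 4.15 FPKM in the first set (−0.18, adjusted p = 0.71). Tbx21, Tbx2, Tbx3 and T averaged at most 0.345 FPKM in any group.

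Insm1, a zinc-finger factor of delaminating progenitors, was dominated by a single replicate number. New-set controls were at 18.004, 22.1 and 111 FPKM and knockdown libraries at 14.5, 12.9 and 29.6 FPKM, with the highest value of each group in replicate 12. The knockdown library was lower in 3 of 3 number pairs, by 0.29, 0.73 and 1.88 on the log2 scale for numbers 10, 11 and 12. The change did not pass without pairing (−0.97, SE 0.625, adjusted p = 0.327) or with the block (SE 0.279, adjusted p = 0.0554), and was −0.51 (adjusted p = 0.148) without both libraries numbered 12 and −0.16 (0.789) without control replicate 12 alone. For the first set, Insm1 was at 24.8 and 32.1 against 27.2 and 21.3 FPKM, with overlap (−0.22, SE 0.242, adjusted p = 0.525). Its relative Insm2 averaged at most 0.616 FPKM in any group and was not tested.

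Ratios of 2 genes within a library do not depend on how the library was scaled. Eomes stood at 1.92, 1.43 and 1.69 times Pax6, the radial glia factor that precedes it, in the new-set controls and 2.40, 2.39 and 2.84 times in knockdown libraries. Those groups do not overlap. Within the first set the ratio was 0.629 and 1.002 in controls and 0.885 and 0.503 in knockdown libraries, with overlap. Eomes to Sox2, another radial glia factor, was at 1.23, 1.01 and 1.01 against 1.85, 1.98 and 2.06 in the new set. It was at 2.78 and 3.61 against 2.14 and 1.15 in the first set, so the groups separate in opposite directions. Exact two-sided permutation within the new set gives p = 0.1 for each of these ratios, the smallest that 3 against 3 allows, and over both sets the shifts were 0.18 (p = 0.533) and −0.08 (p = 0.867) on the log2 scale. Tbr1 to Eomes was at 1.98, 1.45 and 2.18 against 2.07, 1.99 and 1.83 in the new set and at 0.588 and 0.651 against 1.45 and 1.24 in the first set (0.60 over both sets, exact permutation p = 0.133). Neurog2 to Hes5 was at 6.25, 6.84 and 5.86 against 7.18, 8.20 and 7.23 in the new set and at 18.7 and 13.1 against 24.6 and 18.1 in the first set. This shift of 0.34 on the log2 scale over both sets had an exact permutation p of 0.0333, and 0.2 after adjustment over the 6 ratios. Hes5 was low in the first-set knockdown libraries (mean 1.35 FPKM), and the shift was 0.77 after background subtraction (adjusted p = 0.1). Neurod1 to Eomes (0.27, exact permutation p = 0.667) and Neurog2 to Neurog1 (−0.24, p = 0.583) completed the 6, and 0 of them passed after adjustment.

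**Figure D3:**
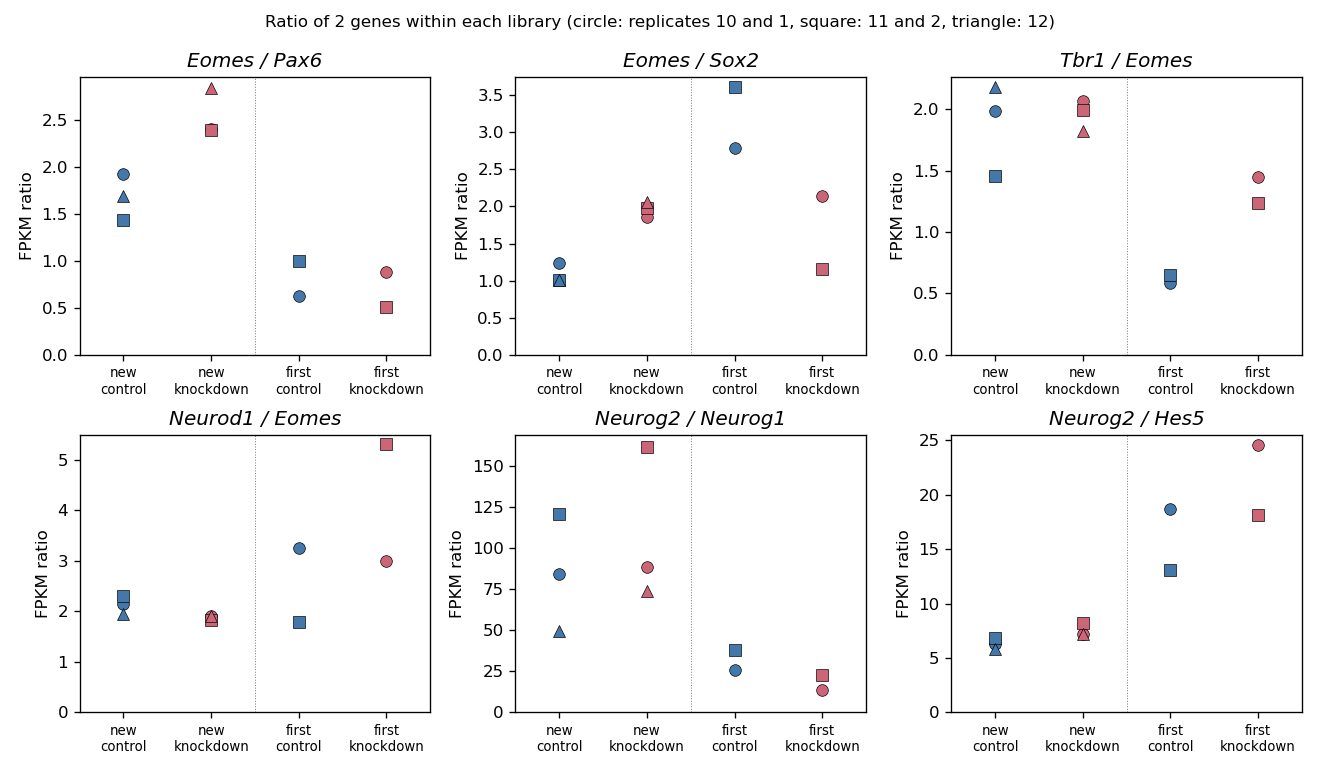
Ratio of the FPKM of 2 genes in each library (vertical axes start at 0), for new-set and first-set control (blue) and knockdown (red) libraries, with marker shapes for replicate numbers. Among new-set libraries the knockdown libraries lie above the controls for Eomes to Pax6 (2.39 to 2.84 against 1.43 to 1.92), and in the first set they overlap.

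Btg2 and Gadd45g are linked to cell cycle exit, and both are also known as genes induced by stress. Btg2, an antiproliferative protein whose expression marks progenitors about to make neurons, was at 51.1, 57.4 and 41.9 FPKM in new-set controls and at 40.7, 34.4 and 19.6 FPKM in knockdown libraries. The groups do not overlap, replicate 12 was the lowest of each, and the change passed only with the replicate block (−0.70; adjusted p = 0.103 without and 0.0229 with it). Among first-set libraries Btg2 was at 242 and 293 FPKM in controls and at 106 and 164 FPKM in knockdown libraries, again without overlap, and fell (−1.01, SE 0.261, adjusted p = 0.0326). That call was lost when any of the 4 first-set libraries was left out (−1.32 to −0.70). Each of those fits has 1 library in a group and called fewer genes over all. The call was also lost with no filter on low values (limma adjusted p = 0.0925). Over both sets Btg2 fell by 0.86 on the log2 scale (SE 0.195, adjusted p = 0.00835), and the sets did not pass the test of a difference (0.31, SE 0.39, adjusted p = 0.572).

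Gadd45g, a small nuclear protein of growth arrest that marks cells leaving the progenitor state, moved in opposite directions. For the new set, it was at 197, 228 and 254 FPKM in controls and at 130.1, 124 and 112 FPKM in knockdown libraries. The groups do not overlap, and it fell to 53.8% of control (−0.88, SE 0.112, adjusted p = 0.0103), a call lost only without both libraries numbered 12 (−0.74, adjusted p = 0.0805). For the first set, it was at 110.3 and 50.8 FPKM in controls and at 582 and 172 FPKM in knockdown libraries, so that the knockdown libraries differ from each other by more than the controls do. Every knockdown library was above every control, and Gadd45g rose to 4.68 times control (2.07, SE 0.578, adjusted p = 0.0412). Leaving out any of the 4 first-set libraries ended that call (1.19 to 2.94, adjusted p from 0.0576 to 0.224), as did testing with no filter on low values (adjusted p = 0.15). The difference between the sets was −2.95 (SE 0.589, adjusted p = 0.00429) and passed without each of the 10 libraries in turn. Groups that separate in opposite directions were seen in 12.9% of the 10827 genes tested in both sets. In the joined fit Gadd45g did not pass (0.59, adjusted p = 0.148) and with the replicate block it did (0.0132), which averages opposite changes.

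The sequence before the Gadd45g start is shown because no other of the 10 genes moved in opposite directions with a call in each set. It covers chr13:51846425-51846674 of GRCm38.p6, plus strand, from RefSeq's table, with E-boxes (CANNTG) in capitals.
Gadd45g: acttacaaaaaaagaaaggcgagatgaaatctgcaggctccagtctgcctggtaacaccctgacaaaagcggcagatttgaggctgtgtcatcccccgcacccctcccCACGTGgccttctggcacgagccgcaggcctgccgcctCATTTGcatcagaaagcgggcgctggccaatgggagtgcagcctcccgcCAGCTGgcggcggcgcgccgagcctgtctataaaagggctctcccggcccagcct
Counting back from −1 at the base before the start, a CACGTG begins at −142, a CATTTG at −104 and a CAGCTG at −55, so 3 E-boxes lie in this window, and the other 5 genes with a listed promoter hold 0 in theirs. At least 1 CAGCTG is found in 13% of all windows. It also holds a TATAAA at −27 (12.4% of windows, either strand) and a CACNAG match at −127. TGGGAA, the core of the site of the Notch cofactor RBPJ, is in 21.6% of windows and among the 6 genes only in that of Btg2, at −176. CTTTGA, the core of the TCF/LEF site of Wnt signalling, is in 13.8% of windows and in 0 of the 6. Matches and their absence say nothing of which factors bind.

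Immediate early and stress genes rose in the first set, as Gadd45g did, while Btg2 fell there. Over all first-set genes 13.2% were called higher. Of 15 listed immediate early and stress genes 8 had group means of at least 1 FPKM in both first-set groups, and these 8 rose (Fos, Jun, Egr1, Nr4a1, Ier2, Dusp1, Klf4 and Cyr61). Another 6 passed the filter only through the knockdown libraries, so their rise was fixed by the filter and is not counted. All 15 together summed to 67.0 and 68.6 FPKM in the first-set controls and to between 412 and 459 FPKM in the knockdown libraries. Within the new set 8 were tested, 3 fell (Jun, Ier2 and Cyr61) and 0 rose, and the sums were 196 to 222 FPKM in controls and 146 to 157 FPKM in knockdown libraries. Ier2 for example fell by 0.49 (adjusted p = 0.0287) in the new set and rose by 3.05 (adjusted p = 0.000754) in the first set. Their part in the values of Gadd45g and Btg2 was not tested. Btg2 is also a p53 target, and of 15 p53 targets 0 of 13 tested passed in the new set, while in the first set 1 rose (Pmaip1) and 1 fell (Trp53inp1) among 11 with both group means at 1 FPKM or more. Bbc3 and Fas were called higher there but passed the filter only through the knockdown libraries.

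Paralogs of these genes gave these values. Gadd45b was at 2.61 ± 1.003 and 1.60 ± 0.315 FPKM in new-set control and knockdown libraries (−0.44, adjusted p = 0.194) and at 0.184 ± 0.11 and 2.53 ± 0.785 FPKM in the first set, where it passed the filter only through the knockdown libraries and no test is given. Gadd45a did not pass in either set (−0.38 and 0.61). Tob1, an antiproliferative relative of Btg2, fell in the new set (43.9 ± 4.59 to 27.0 ± 3.43 FPKM, −0.68, adjusted p = 0.0203) and Tob2 in the first set (7.78 ± 1.996 to 3.15 ± 0.111 FPKM, −1.06, adjusted p = 0.032). Btg1 did not pass in either set (−0.23 and −0.37) nor did Btg3 (0.62 and 0.51).

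**Figure D4:**
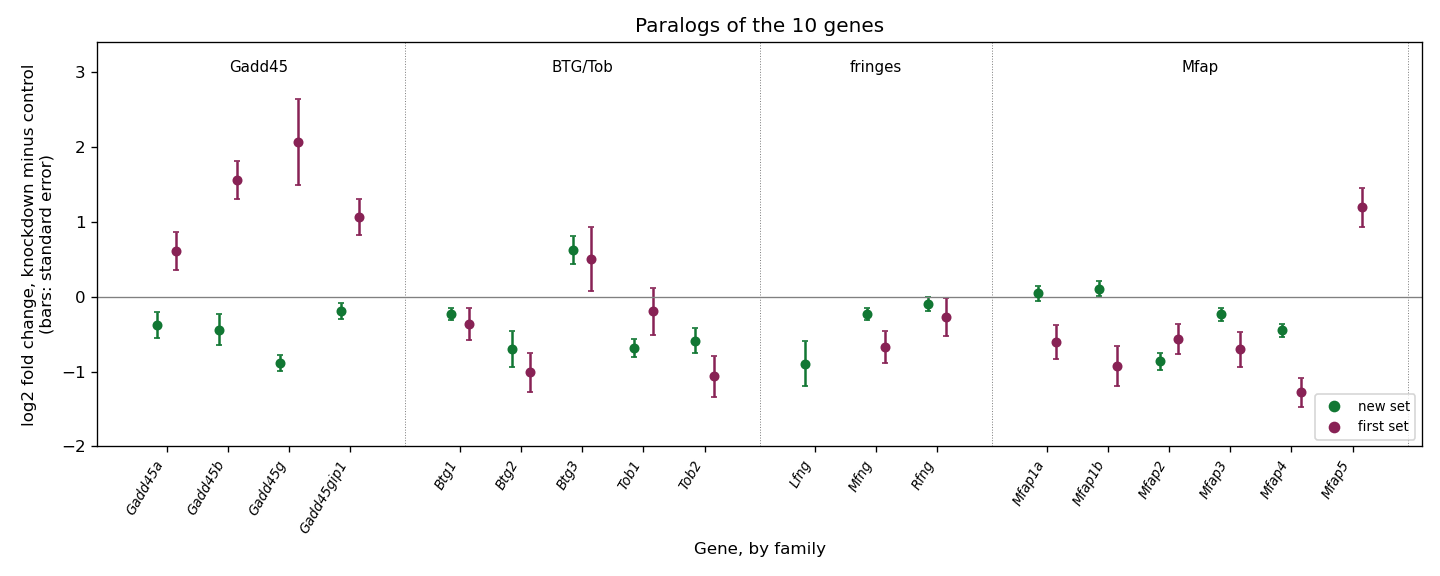
Log2 fold change (knockdown minus control, bars are standard errors) of tested genes in 4 groups (Gadd45, BTG and Tob, fringes, Mfap) that each hold 1 of the 10 genes, in the new set (green) and the first set (purple). The Gadd45 and Mfap groups follow gene names and are not all paralogs. Gadd45g, Gadd45a and Gadd45b lie below 0 in the new set (−0.88 to −0.38) and above 0 in the first set (0.61 to 2.07). Gadd45gip1, grouped by name, is at −0.19 and 1.07. Gadd45b and Mfap5 passed the first-set filter only through the knockdown libraries.

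Mfng, or manic fringe, adds sugars to Notch receptors and so changes which ligands activate them. It was at 81.1, 87.0 and 82.7 FPKM in new-set controls and at 75.8, 67.9 and 69.9 FPKM in knockdown libraries, a narrow separation that did not pass (−0.23, SE 0.0786, adjusted p = 0.0991). First-set controls were at 133 and 106 FPKM and knockdown libraries at 67.3 and 81.7 FPKM, also without overlap and without a call (−0.67, SE 0.219, adjusted p = 0.0632). Joined, Mfng fell (−0.45, SE 0.0952, adjusted p = 0.00596), and it did so without each of the 10 libraries (adjusted p at most 0.02). The other fringes, Lfng and Rfng, did not pass in the new set (−0.90 and −0.10), and Lfng averaged 0.461 and 0.984 FPKM in first-set groups and was not tested there.

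Some Notch genes around the proneural factors fell, and in the first set their share was near that of all genes. Of 33 listed Notch genes other than Mfng, 28 were tested in the new set, where 4 fell (Hes1, Hes5, Dll1 and Numb) and 2 rose (Dtx1 and Dner), beside 5.15% and 3.84% of all genes. Hes5, an effector that represses proneural genes, went from 44.1 ± 2.07 to 24.9 ± 3.23 FPKM (−0.81, SE 0.106, adjusted p = 0.0105). Dll1, the ligand that proneural factors switch on, went from 27.4 ± 1.85 to 16.7 ± 3.27 FPKM (−0.69, SE 0.134, adjusted p = 0.0248). Within the first set 27 were tested and 4 fell (Rbpj, Maml2, Adam10 and Ncstn), beside 10.7% of all genes, with Dll1 at 8.42 ± 1.56 and 10.1 ± 2.52 FPKM (0.22, adjusted p = 0.576), and its difference between the sets passed (−0.91, adjusted p = 0.0246). Of 13 tested antagonists of proneural factors 5 fell and 0 rose in the new set (Hes1, Hes5, Id4, Sox2 and Sox9). In the first set, where 10.7% of all genes were called lower and 13.2% higher, those 5 were below 0 without a call (−0.50 to −0.06). Of the 13 antagonists 0 fell and 2 rose there, which is near the share of all genes called higher. They were Id1 (4.17 ± 2.31 to 40.1 ± 2.91 FPKM, 3.06, adjusted p = 0.00167) and Id3 (2.22, adjusted p = 0.00138), which code for proteins that block bHLH factors from binding DNA. Only these 2 of the 13 passed the test of a difference between the sets.

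Mfap4 and Rhbdl3 are less studied in cortex. Mfap4, a glycoprotein of extracellular microfibrils, was at 94.7, 109 and 102 FPKM in new-set controls and at 78.7, 72.2 and 71.5 FPKM in knockdown libraries, and at 113 and 101 FPKM in first-set controls against 41.6 and 45.3 FPKM. Neither set overlaps, and Mfap4 fell in both (−0.45, SE 0.0847, adjusted p = 0.0236, and −1.28, SE 0.198, adjusted p = 0.00497). The fall was larger in the first set by the test of the difference (0.83, SE 0.167, adjusted p = 0.00452). The new-set call ended without control replicate 12 or any 1 of the 3 knockdown libraries (adjusted p from 0.059 to 0.0986), and the first-set call without control replicate 1 or knockdown replicate 1 (0.0575 and 0.0537). Exons of Mfap4 overlap those of Mapk7 on the other strand in GENCODE M21, so reads of both may be mixed. Of the 6 other Mfap genes, Mfap2 fell in the new set (238 ± 29.9 to 130.0 ± 11.3 FPKM, −0.86, adjusted p = 0.0111), and Mfap1b fell in the first set (−0.93, adjusted p = 0.0453). Mfap5 was at 0.662 ± 0.206 and 2.83 ± 0.772 FPKM in first-set control and knockdown libraries, where it passed the filter only through the latter.

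Rhbdl3, a rhomboid-family membrane protein, was at 35.2, 32.8 and 41.2 FPKM in new-set controls and at 28.2, 25.0 and 23.0 FPKM in knockdown libraries. The groups do not overlap, and it fell (−0.50, SE 0.113, adjusted p = 0.037), a call that ended without any 1 of the new-set libraries but control replicate 11 (adjusted p from 0.0627 to 0.126) and with no filter on low values (0.0614). For the first set, it was at 7.05 and 12.6 FPKM in controls and at 3.17 and 5.27 FPKM in knockdown libraries (−1.03, SE 0.35, adjusted p = 0.0703). Of the other 8 rhomboid genes, 6 were tested in the new set and 0 changed, and 7 in the first set. There Rhbdl2, the 1 gene called, was at 0.802 ± 0.0313 and 9.87 ± 2.65 FPKM and passed the filter only through the knockdown libraries.

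With both sets joined, 7 of the 10 genes fell, 0 rose and 3 did not pass, among 10827 genes of which 29.9% were called, 20.5% lower and 9.37% higher. Those that fell were Mfap4, Btg2, Rhbdl3, Neurod4, Eomes, Mfng and Neurog2, with log2 fold changes from −0.86 to −0.45, and Neurog1, Insm1 and Gadd45g did not pass. The count was 6 or 7 without each of the 10 libraries in turn, and Gadd45g rose in that fit without first-set knockdown replicate 2 (1.03, adjusted p = 0.00433). It averages sets that differ for 4 of the genes: the difference passed for Eomes, Neurod4 and Mfap4, each lower in the first set, and for Gadd45g, higher there. Among all genes 22.5% differed in the direction of those 3 and 9.98% in that of Gadd45g.

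A list of other intermediate progenitor markers was also counted. It is not exclusive to those cells, since Neurod2, Neurod6 and Cntn2 are also among the neuronal markers. All 37 genes of this list were tested in both sets. In the new set 4 fell and 2 rose, beside 5.15% and 3.84% of all genes (median −0.01, against 0.02 for all tested genes). Those that fell were Hes6, Dll1, Chd7 and Slc17a6, and those that rose Neurod6 and Rasgef1b. Within the first set 9 fell and 3 rose, beside 10.7% and 13.2% of all genes (median −0.47, against −0.15). Of these 3, Tac2 passed the filter only through the knockdown libraries. Rnd3, a small GTPase of migrating cells, fell there from 171 ± 17.8 to 63.0 ± 6.47 FPKM (−1.42, SE 0.204, adjusted p = 0.00366), and Gpsm2, which orients the mitotic spindle, fell by 1.18 (adjusted p = 0.0124). Penk, 1 of the 3 that rose there, went from 2.87 ± 0.748 to 8.63 ± 2.06 FPKM (1.31, SE 0.289, adjusted p = 0.0195). In the new set Penk was also above its controls without overlap but did not pass (0.62, adjusted p = 0.0568). Joined, Penk rose (0.97, adjusted p = 0.00174). Hes6, which counters Hes1, was at 228 ± 19.5 and 154 ± 10.2 FPKM in the new set (−0.56, SE 0.0959, adjusted p = 0.02) and at 42.8 ± 14.9 and 167 ± 52.0 FPKM in the first set (1.95, SE 0.315, adjusted p = 0.00599), so it fell and rose in the same sets as Gadd45g (difference −2.51, adjusted p = 0.000541). The same shares of all genes stand beside the counts of neurogenin targets. Of 16 listed targets of the neurogenins other than the 10 genes, 4 fell and 2 rose in the new set, against 5 and 1 for the first set. Rassf4, one of them, was lower in both sets (−0.69, adjusted p = 0.0325, and −0.71, adjusted p = 0.0688).

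**Figure D5:**
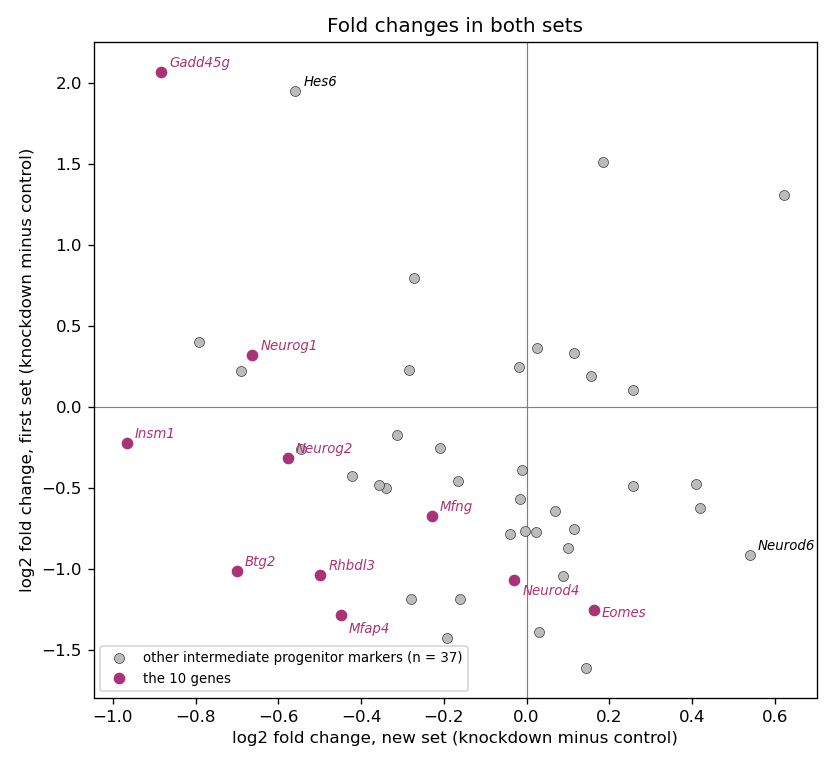
Log2 fold change (knockdown minus control) in the new set (horizontal) against the first set (vertical) for the 10 genes (purple) and 37 other intermediate progenitor markers (grey). Some of the 37 are also among the neuronal markers. Gadd45g and Hes6 lie below 0 in the new set and near 2 in the first set, apart from the other 9 genes, whose first-set values run from −1.28 to 0.32.

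The neighbouring cell states gave these values. Of 23 radial glia markers 11 fell and 0 rose in the new set, against 5 and 0 for the first set. Pax6 was among those that fell in both, at 29.3 ± 3.78 and 21.6 ± 0.638 FPKM in the new set (−0.42, adjusted p = 0.0484) and at 58.5 ± 2.71 and 29.2 ± 9.97 FPKM in the first set (−1.02, adjusted p = 0.0342). Of 24 neuronal markers 9 rose and 1 fell in the new set, and 7 fell and 0 rose in the first set, beside the same shares of all genes. Markers of cells that the electroporation does not aim at also moved. Among new-set libraries 2 interneuron markers with both group means at 1 FPKM or more fell (Sst and Calb2), 3 called lower passed the filter only through the controls (Dlx2, Dlx5 and Lhx6), and the 10 listed summed to 22.4 to 35.7 FPKM in controls and 13.7 to 17.5 FPKM in knockdown libraries. Cajal-Retzius markers summed to 13.7 to 21.0 and 7.92 to 11.4 FPKM, with Calb2 and Reln lower. Erythroid markers summed to 213 to 411 FPKM in new-set controls and 38.4 to 174 FPKM in knockdown libraries. Of 5 tested 3 fell there (Beta-s, Hba-a2 and Hbb-b2), beside 5.15% of all genes. Choroid plexus and hem markers summed to 18.9 to 23.8 FPKM in new-set controls and 28.9 to 68.7 FPKM in knockdown libraries, where 0 of 2 tested passed. The 9 listed microglia markers summed in the first set to 1.83 and 6.47 FPKM in controls and 15.6 and 28.1 FPKM in knockdown libraries, and the 5 called higher had all passed the filter only through the knockdown libraries. The part of these cells in the values of the 10 genes was not tested.

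The order of the 10 genes within a library also differed between the sets. In the new-set controls Neurog2 was highest, above Gadd45g, Mfap4 and Mfng, and each of Neurog2, Gadd45g and Mfap4 stood above the next gene in all 3 controls. Insm1, Btg2 and Eomes, with means of 50.4, 50.1 and 48.9 FPKM, could not be ordered, and Neurod4 and Neurog1 came last. In the first-set controls Btg2 led, with Mfng, Mfap4 and Gadd45g after it, and Neurog2 was 6 in rank at a mean of 35.99 FPKM; neighbours from Mfng to Insm1 overlapped. In the first-set knockdown libraries Gadd45g was highest. The tables were normalized separately, so only the order within each is given. The coefficient of variation among controls had a median of 12.2% over the 10 genes in the new set, with Insm1 at 104%, and of 19% in the first set.

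How the genes vary together is given as a description over the 10 libraries, with each set's mean subtracted, so that knockdown, depth and background all enter. The highest Pearson correlation among the 10 genes was 0.96, between Mfng and Mfap4, and the lowest was −0.80, between Eomes and Gadd45g. Among 10826 other genes the 3 most like Eomes were Rap2a, Bcorl1 and Prkci (r = 0.99, 0.98 and 0.98), those most like Neurog2 were Eno3, Rcn3 and Igfbp4 (0.97, 0.97 and 0.96), and those most like Gadd45g were Pola2, Hdgfrp2 and Sec22b (0.98, 0.97 and 0.97).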

How the data were processed

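RNA of sorted GFP-positive cells was purified (RNeasy Plus) and turned into libraries with Clontech low-input reagents, per the labels. The authors deposited FPKM values, 1 column per library, in 2 separately made tables, and every column was matched to a sample by title. The submitters' processing notes name TopHat2, Bowtie, Cufflinks 2.0.0, Cuffdiff and build mm9; the annotation and the handling of strand are not given in what was used here. Absolute depth is unknown, and relative depth is an estimate, the most common ratio between a library and the first control of its set over genes under 0.3 FPKM in that control.

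Values were taken as log2(FPKM + 1), which understates fold changes of low genes. A gene was fitted where its mean over a set's libraries reached 1 FPKM, per set, with limma 3.58.1 in R 4.3.3 (lmFit, eBayes with trend, two-sided, 4 and 2 residual degrees of freedom), and both sets in a joined fit (6). P-values were adjusted by Benjamini-Hochberg over all genes tested and called under 0.05. The code was tested on simulated data. Ratios of 2 genes were tested by exact permutation within sets. Alternatives were the replicate block, a pseudocount of 0.1, no filter, a minimum of 5 FPKM, median-of-ratios rescaling, no trend, subtraction of the olfactory receptor mean and leaving out each library.

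In the new set, libraries with the same number deviated together from their group means (correlation across genes 0.122, 0.242 and 0.193 for numbers 10, 11 and 12), so numbers are taken as pairs there, from the data. In the first set the correlation was −0.0285, and they are not. The main fits, the fits without a library and the main ratio tests do not use this pairing, which enters only through the replicate block.

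The 10 genes and all lists were chosen with earlier results of these data known. Named were the 10 genes, Chd8, genes of the 6 ratios and of their families, up to 4 genes of each other list with the smallest joined p, and the 3 genes most like Eomes, Neurog2 and Gadd45g. Further list members named as examples or among those called were chosen after their values were seen. Upstream sequences and motif shares are from RefSeq, GRCm38.p6; mm9 coordinates are not used here.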

Additional observations from a re-analysis of the deposited data

Results flagged for a closer look

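In 4 of the 10 genes the change with knockdown differed between the sets by a test of the difference in the joined limma fit. The new-set minus first-set log2 fold change was 1.42 for Eomes (SE 0.276, adjusted p = 0.00393), 1.04 for Neurod4 (SE 0.304, adjusted p = 0.0236), 0.83 for Mfap4 (SE 0.167, adjusted p = 0.00452) and −2.95 for Gadd45g (SE 0.589, adjusted p = 0.00429). For Gadd45g every new-set knockdown library was below every control and every first-set knockdown library above. The shRNA, the batch and the table cannot be told apart in these differences, and 32.5% of the 10827 genes tested in both sets passed the same test. The difference of Neurod4 did not pass without new-set knockdown replicate 10 (adjusted p = 0.0547), first-set control replicate 1 (0.0843) or first-set knockdown replicate 1 (0.0742).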

How the results depend on the processing

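Under the 7 alternatives that keep all libraries, 66 new-set values of the 10 genes, 61 first-set values, 67 joined and 67 of the difference kept their direction and their side of the threshold. Of the others, the new set had 1 weaker and 2 stronger, the first set 3 weaker, 3 stronger and 1 of opposite sign, and 1 stronger each joined and in the difference; with a minimum of 5 FPKM some low genes were not tested. With no filter on low values 1 gene (Mfap4) fell and 0 rose in the first set, the calls of Eomes, Btg2 and Gadd45g being lost. With the replicate block, where the pairing of numbers is seen only in the new set, 6 genes fell in the new set, 1 rose joined (Gadd45g) and 2 differed between sets toward lower (Gadd45g and Neurog1); it changed no call of the 10 genes beyond these, those given above and Rhbdl3 in the first set (−1.03, adjusted p = 0.0353). All calls went from 1015 to 2452 with the block in the new set, from 2971 to 1602 with a minimum of 5 FPKM in the first set and from 3238 to 5917 joined with no filter. Background subtraction turned Neurog1 in the first set to −0.058 and the ratio of Neurog2 to Neurog1 to 0.12, and moved the first-set median of all genes from −0.15 to −0.29.

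Leaving out libraries, and both numbered 12 (added after seeing the data), the number that fell ranged from 0 to 4 (new set), 0 to 1 (first set) and 6 to 7 (joined). The number that rose was 0 in the first set and 0 to 1 joined, and differences between sets numbered 1 to 2 lower and 2 to 4 higher. Where a first-set group is left with 1 library, that library is assumed to vary like the other group, and those fits called fewer genes over all. Chd8 in the new set ranged from −0.70 to −0.58 (adjusted p up to 0.128) and kept its call only without control replicate 11. Signs turned for Neurod4 in the new set (−0.11 to 0.059), Neurog1 in the first set (−0.041 to 0.68) and joined (−0.35 to 0.0095), the differences between sets of Insm1 (−1.22 to 0.061) and Btg2 (−0.0061 to 0.62), and the ratios of Eomes to Pax6 (−0.028 to 0.38) and to Sox2 (−0.30 to 0.15). The cause of these changes was not tested.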
